A study of Mus musculus with 79 samples.

Results

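The step from 6 h to 24 h of retinoic acid (RA) was examined in mouse embryonic stem (ES) cells of the line E14, as the difference in total RNA between 3 libraries at 24 h and 4 libraries at 6 h. These 7 libraries were taken by their labelled time from the 25 libraries of an E14 time course, in a series of 79 RNA libraries. At 6 h the libraries carry replicate numbers 1 to 4, and at 24 h numbers 1, 3 and 4. Both groups are wild-type E14 cells given 1 uM RA, so neither group is untreated, and the comparison is of a later with an earlier time in the same treatment. E14 is an ES line derived from mouse blastocysts, grown here on gelatin in medium with serum and the cytokine LIF, and the labels do not say whether LIF stayed in the medium with RA. RNA had been depleted of ribosomal RNA, and cells of the Drosophila line SG4 had been mixed in for calibration. The 6 h libraries held 8140663, 7962811, 12980610 and 3362536 reads in genes (replicates 1 to 4), and the 24 h libraries held 4122332, 3909738 and 3126787 (replicates 1, 3 and 4), so low-abundance genes rest on fewer reads at 24 h. The same step in nuclear RNA of the wild-type clone G4 is given beside it. G4 is a single E14-derived clone from the work that made deletions of a transient enhancer in the Hoxb locus, it carries the locus undeleted, and it has 2 libraries at each time. Tissue, cell type and growth conditions are labelled alike for both E14 groups. Nothing says that the replicates came from separate cultures, so p-values measure spread between libraries, in E14 estimated over all 25 of the time course.

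RA, made from vitamin A, enters the nucleus and binds RAR and RXR receptors, which sit on DNA as pairs and switch neighbouring genes on when the ligand arrives. Among the direct targets are enzymes that destroy or store RA, the RAR beta receptor itself, and Hox genes, which lie in clusters and give cells their position along the body axis. ES cells keep a self-renewing state through a network of transcription factors that includes Oct4 (gene Pou5f1), Sox2, Nanog and Esrrb, helped by LIF through STAT3, and they leave it through steps in which FGF, Nodal, BMP and Wnt signals and the DNA methylation machinery also change.

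Levels are given as CPM, reads relative to a library's total after TMM scaling, per library or as mean ± SD, and changes as log2 fold change of 24 h over 6 h ± an approximate standard error (SE). Calls rest on edgeR's quasi-likelihood test over all genes tested, fitted on all 25 E14 libraries, with Benjamini-Hochberg adjustment. The threshold was 0.05 for the adjusted p. Of 15061 genes tested, 1765 (11.7%) were higher at 24 h and 1809 (12% of genes) were lower, 23.7% in either direction. These shares are the background for the counts of every gene list below. Lists share some members, Gbx2 and Tet2 among them, so their counts are not independent. Changes of at least 2-fold were more often rises, with 775 genes higher (5.15%) and 283 lower (1.88%). The CPM of the 2 times did not overlap for 30.4% of genes tested. In the authors' deposited table, 3828 transcripts were higher and 1784 lower at their adjusted p under 0.05, of 25693 with such a p. The split depends on the scaling: with the authors' own size factors, 2121 genes were higher and 929 lower, 69.54% of calls being rises against 49.38% here, and the median gene moved by 0.11 on the log2 scale. Without 24 h replicate 3, 1085 genes were higher and 1074 lower, and without 24 h replicate 4 the genes at least 2-fold lower numbered 172.

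**Figure D1:**
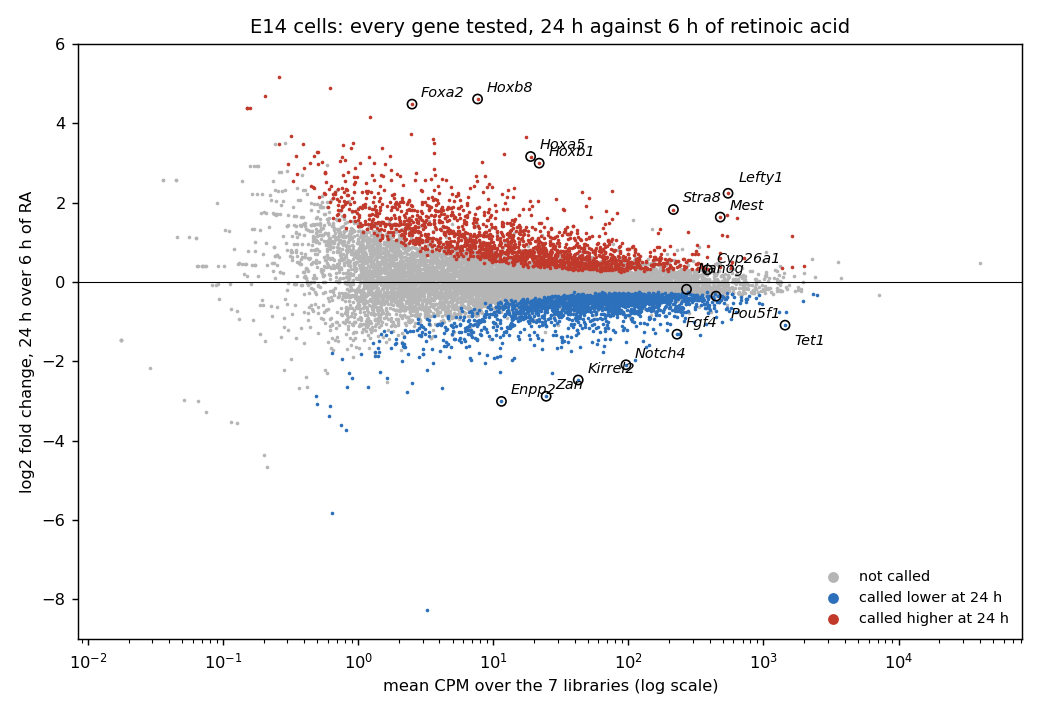
Each of the 15061 genes tested, by its mean CPM over the 7 libraries (x axis, log scale) and its log2 fold change of 24 h over 6 h (y axis), with the 1765 genes called higher and the 1809 called lower in colour and some named. Fitted changes of genes with no reads in a group, such as Edn2, depend on the prior count of the fit.

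The 3 libraries at 24 h did not stand equally far from 6 h. Among the 775 genes called at least 2-fold higher, replicate 3 had the highest CPM for 343 genes, replicate 4 for 302 and replicate 1 for 130. Among the 283 genes called at least 2-fold lower, replicate 4 had the lowest CPM for 163 genes, replicate 3 for 87 and replicate 1 for 33, so replicate 1 was least often the most distant 24 h library, while over all genes tested the shares were 30.4% for replicate 1, 30.62% for replicate 3 and 38.98% for replicate 4. The summed CPM of the 11 fibroblast and stroma genes tested, markers of cells other than ES cells, was 787, 1112, 185 and 181 at 6 h (replicates 1 to 4) and 974, 321 and 300.3 at 24 h (replicates 1, 3 and 4). It was thus high in replicates 1 and 2 at 6 h and in replicate 1 at 24 h, and low in replicates 3 and 4 at both. None of the 11 genes tested was called, 1 being called higher without 6 h replicate 1 or 2, and the part of such cells in the changes below was not tested. In bulk RNA a smaller number of cells of a kind and less RNA in each such cell cannot be told apart, for any of the changes below.

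The transcription factors by which the cells are recognised as ES cells were present at both times, and the best known of them were not called. Nanog, a homeobox factor of the core network (chr6:122707565-122714633), was at 295, 280.4, 264 and 297 CPM at 6 h and 269, 206 and 276 CPM at 24 h. The 2 times overlapped, and the log2 fold change was -0.18 ± 0.39 (adjusted p = 0.782). Sox2, the partner of Oct4, was at 337 ± 33.5 CPM (n = 4) and 338 ± 42.3 CPM (n = 3). Pou5f1, which encodes Oct4 (chr17:35506032-35510777), was at 459, 491, 414 and 603 CPM at 6 h and 409, 407 and 334 CPM at 24 h. All 24 h values of Pou5f1 lay below the 6 h values, yet the change of -0.36 ± 0.34 did not pass (adjusted p = 0.483). Klf4 at -0.19 ± 0.32 (adjusted p = 0.723) and Tbx3 at 0.21 ± 0.29 (adjusted p = 0.653), factors of the naive state, also missed the threshold. The nuclear receptor gene Esrrb was at 279, 280.4, 266 and 297 CPM at 6 h and 237, 204 and 156 CPM at 24 h, and Tfcp2l1, a factor downstream of LIF, at 439.8, 381, 389.9 and 359 and 316, 223 and 228 CPM. Zfp42, also called Rex1 and used as a marker of the naive state, was at 241, 255, 262 and 265 CPM at 6 h and 219, 189.5 and 176 CPM at 24 h. For Esrrb, Tfcp2l1 and Zfp42 the 24 h libraries were all below the 6 h libraries, with changes of -0.49 ± 0.42, -0.62 ± 0.34 and -0.39 ± 0.37 (adjusted p = 0.43, 0.206 and 0.482). When the 7 libraries were fitted alone, so that the spread at 48 and 72 h did not enter, these genes passed, with adjusted p = 0.0328 for Esrrb, 0.0128 for Tfcp2l1 and 0.0491 for Zfp42, while Pou5f1 (0.138) and Nanog (0.481) did not. In the nuclear RNA of G4, Pou5f1 changed by -0.90 ± 0.25 (adjusted p = 0.0108 by limma) and Tfcp2l1 by -1.01 ± 0.27 (adjusted p = 0.0102), while Nanog was at -0.50 ± 0.54 (adjusted p = 0.582).

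Other genes of the pluripotent state did fall. Of the 17 naive pluripotency genes, all of them tested, 4 fell and 1 rose, against 12% and 11.7% of all genes, and the median change was -0.47. In the fit of the 7 libraries alone 8 of them fell, and the count was 2 without 24 h replicate 3. Nr0b1, an orphan nuclear receptor known as Dax1 that binds Oct4 (chrX:86191775-86195946), was at 92.4, 107, 79.0 and 93.6 CPM at 6 h and 33.5, 34.8 and 21.5 CPM at 24 h. No 24 h library came near the 6 h values, and the log2 fold change was -1.62 ± 0.33 (adjusted p = 0.0017). Nr5a2, a nuclear receptor that can stand in for Oct4 in reprogramming, fell from 71.7 ± 4.19 to 34.5 ± 7.09 CPM (-1.05 ± 0.20, adjusted p = 0.000524). Prdm14, which holds ES cells in the naive state, fell from 17.6 ± 2.86 to 8.49 ± 1.74 CPM (-1.07 ± 0.29, adjusted p = 0.00769), a call lost without 24 h replicate 3 (adjusted p = 0.0556). Gbx2, a homeobox gene downstream of LIF that is also a marker of the anterior hindbrain, was the naive gene that rose, by 0.73 ± 0.13 (adjusted p = 0.000278). Of the 18 general pluripotency genes, 5 fell and none rose (median -0.39), the count being 2 without 24 h replicate 3 and 3 without 6 h replicate 3 or 24 h replicate 1, and 2 with the authors' size factors. Tdh, the threonine dehydrogenase on which mouse ES cells depend for folate metabolism (chr14:63492347-63509092), was at 209, 211, 178 and 203 CPM at 6 h and 89.0, 56.7 and 53.1 CPM at 24 h. It had the largest fall of this list, -1.59 ± 0.34 (adjusted p = 0.00245). Zscan10, a zinc finger partner of Oct4 and Sox2, fell by 0.88 on the log2 scale (adjusted p = 0.00165). Mybl2 (-0.65 ± 0.21, adjusted p = 0.0272) and Rex2 (-0.62 ± 0.18, adjusted p = 0.0142) also fell, but Mybl2 was not called without 6 h replicate 3 or 4 or 24 h replicate 3 or 4 (adjusted p = 0.0506 to 0.122), nor Rex2 without 24 h replicate 1 or 3 (adjusted p = 0.0598 to 0.0825).

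**Figure D2:**
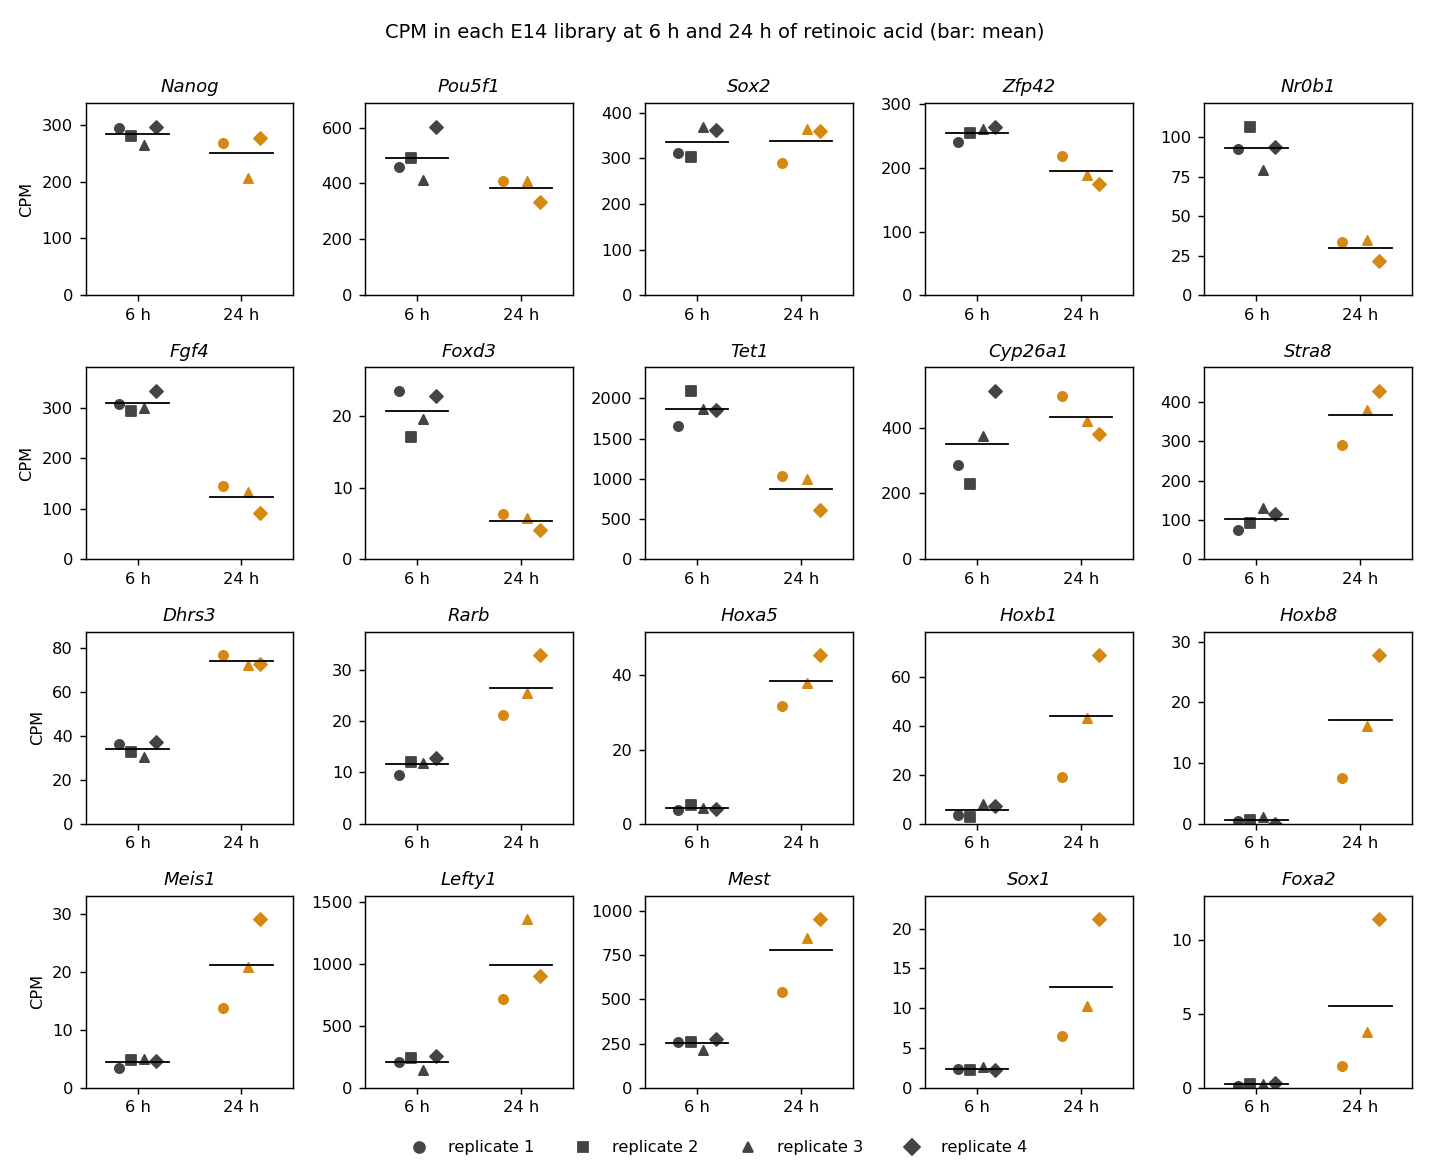
CPM of 20 genes in each library at 6 h (4 points) and 24 h (3 points), 1 panel a gene with its own axis from 0, bars marking the mean. Nanog, Sox2 and Cyp26a1 overlap between the times, while Nr0b1, Fgf4, Foxd3 and Tet1 are lower and the Hox genes, Stra8 and Mest higher in every 24 h library.

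Genes of the formative and primed states, which ES cells pass through in the epiblast, did not move one way. Of 16 tested, 4 rose and 2 fell, against 11.7% and 12% of all genes. The median of -0.13 became 0.01 with the authors' size factors, and with the replicate number as a block 4 fell. Foxd3, a forkhead factor needed in early epiblast (chr4:99656299-99658671), was at 23.5, 17.1, 19.5 and 22.8 CPM at 6 h and 6.31, 5.80 and 4.11 CPM at 24 h. Foxd3 changed by -1.91 ± 0.27 (adjusted p = 1.68e-05). Sall2 (1.33 ± 0.30), Sox4 (0.84 ± 0.17), Sox3 (0.84 ± 0.22) and Tead2 (0.52 ± 0.12) rose, with adjusted p = 0.00279, 0.000985, 0.00627 and 0.00283. Sox3, a relative of Sox2 in the neural plate, was not called without 24 h replicate 4 (adjusted p = 0.0598). Otx2, a homeobox factor of the anterior epiblast, was at 4.45, 4.23, 16.1 and 14.4 CPM at 6 h and 2.91, 12.6 and 11.4 CPM at 24 h, which overlap. Its values were low in replicates 1 and 2 at 6 h and in replicate 1 at 24 h, and high in replicates 3 and 4 at both times. Fgf5, the usual marker of primed epiblast, was at 2.61 ± 1.06 and 1.80 ± 1.24 CPM (adjusted p = 0.302), and Pou3f1 at 37.3 ± 4.56 and 34.5 ± 9.10 CPM (adjusted p = 0.744).

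Of 10 genes for enzymes that add and remove DNA methylation, 4 fell and 1 rose, against 12% and 11.7% of all genes (median -0.43). With the authors' size factors 2 of them fell. Tet1, which oxidises methylated cytosine and is abundant in ES cells (chr10:62804570-62880014), was at 1662, 2093, 1863 and 1858 CPM at 6 h and 1032, 996 and 609.5 CPM at 24 h. Every 24 h library lay below every 6 h library, by -1.09 ± 0.19 on the log2 scale (adjusted p = 0.000327). Tet3, its relative in differentiated cells and the zygote, rose by 0.65 ± 0.20 (adjusted p = 0.0181), a call lost without 6 h replicate 4 or 24 h replicate 3 or 4 (adjusted p = 0.0539 to 0.0948). Tet2 fell by 0.45 on the log2 scale (adjusted p = 0.0355), a call lost without 6 h replicate 2 or 3 or 24 h replicate 1, 3 or 4 (adjusted p = 0.0559 to 0.109). Dnmt3b, a de novo methyltransferase, was at 231, 266, 326 and 323 CPM at 6 h and 127, 175 and 169 CPM at 24 h. Dnmt3b changed by -0.87 ± 0.16 (adjusted p = 0.000485). Uhrf1, which brings Dnmt1 to replicated DNA, fell from 323 ± 45.9 to 243 ± 18.7 CPM (-0.41 ± 0.11, adjusted p = 0.00566). Its fall was not called in the fit of the 7 libraries alone (adjusted p = 0.0669). Of 20 Polycomb and H3K27 demethylase genes, 5 fell and none rose, the count of falls being 3 without 6 h replicate 3 or 24 h replicate 4, and 2 with the authors' size factors. Eed, the subunit of PRC2 that reads H3K27me3, fell from 185 ± 12.7 to 118 ± 8.33 CPM (-0.64 ± 0.11, adjusted p = 0.000215), and Pcgf6, of a variant PRC1 that is abundant in ES cells, from 71.8 ± 2.32 to 48.7 ± 3.69 CPM (-0.56 ± 0.11, adjusted p = 0.000485). The list's median of -0.07 turned to 0.05 with the authors' size factors.

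The LIF and STAT3 pathway, which holds ES cells in culture, had 5 genes lower and 3 higher of 16 (median -0.31). Gbx2, described above among the naive genes, is among the rises. Lifr, the LIF receptor (chr15:7140542-7197489), was at 291, 321, 366 and 325 CPM at 6 h and 193, 177 and 128 CPM at 24 h. Lifr changed by -0.97 ± 0.13 (adjusted p = 1.51e-05). Both STAT3 targets Socs3, the feedback inhibitor, and Bcl3 fell, Socs3 from 38.1 ± 5.67 to 20.7 ± 5.16 CPM (-0.88 ± 0.18, adjusted p = 0.000744) and Bcl3 from 24.5 ± 3.86 to 12.6 ± 4.74 CPM (-0.92 ± 0.20, adjusted p = 0.00135). Pim3, a kinase target, fell by 0.59 on the log2 scale (adjusted p = 0.00035), whereas its relative Pim1 rose by 0.37 ± 0.11 (adjusted p = 0.0172), a call lost without 6 h replicate 3 or 24 h replicate 3 or 4 (adjusted p = 0.0505 to 0.104). Jak1, the kinase bound to the receptor, rose by 0.50 ± 0.15 (adjusted p = 0.0172), a call lost without 6 h replicate 3 or 24 h replicate 4 (adjusted p = 0.0508 to 0.147). The count of rises was 1 without 6 h replicate 3 or 24 h replicate 4.

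In the RA pathway the promoters of a degrading enzyme and of a receptor hold a direct repeat of the kind known to bind the receptors, and they are printed because the first gene was not called in this step and the second rose. Both run from 250 bases before to 50 after the start of transcription, 5′ to 3′ on the gene's strand, from RefSeq on GRCm38.p6 (mm10). Capitals mark a direct repeat of 2 half-sites with a spacer of 5 bases, searched on either strand. Each half-site could read AGGTCA, the consensus, or the close variant AGTTCA. The variant GGGTCA was also accepted, and so was the variant GGTTCA.
Cyp26a1 promoter, chr19:37697558-37697857, plus strand: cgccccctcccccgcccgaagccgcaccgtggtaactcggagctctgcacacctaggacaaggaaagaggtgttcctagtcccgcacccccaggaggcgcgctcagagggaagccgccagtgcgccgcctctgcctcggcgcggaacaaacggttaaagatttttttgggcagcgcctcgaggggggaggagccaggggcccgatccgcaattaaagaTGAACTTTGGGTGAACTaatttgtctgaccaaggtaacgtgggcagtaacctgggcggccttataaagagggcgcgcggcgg
Rarb promoter, chr14:16575427-16575726, minus strand: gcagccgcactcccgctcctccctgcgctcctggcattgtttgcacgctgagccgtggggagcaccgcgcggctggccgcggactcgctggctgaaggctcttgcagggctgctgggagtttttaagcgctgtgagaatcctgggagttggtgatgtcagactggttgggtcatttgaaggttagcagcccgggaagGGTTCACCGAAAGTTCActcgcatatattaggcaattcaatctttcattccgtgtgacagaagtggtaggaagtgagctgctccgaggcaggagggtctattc
In Cyp26a1 the repeat lies on the opposite strand, 32 to 16 bases before the start, and in Rarb on the gene's strand, 53 to 37 bases before it. Promoters could be matched for 10628 of the genes tested, and 6 of them hold such a repeat (0.05645%), among them 3 of 499 genes called at least 2-fold higher (0.6012%) and 0 of 177 called at least 2-fold lower. The other 4 are Prokr2 (1.56 ± 0.37, adjusted p = 0.00301) and Syndig1 (1.30 ± 0.35, adjusted p = 0.00818), which rose, and Cfap45 (0.24 ± 0.49, adjusted p = 0.81) and Ppbp (-0.08 ± 0.72, adjusted p = 0.955), which were not called. The octamer ATGCAAAT was found in 1.804% of rising, 2.26% of falling and 1.44% of all promoters on either strand, and the Klf motif GGGTGTGG in 3.607%, 2.26% and 3.83%. Neither of these motifs was found in the Cyp26a1 or Rarb promoter, so no match overlapped the repeats.

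Of 24 RA pathway genes tested, 8 rose and 1 fell, with a median of 0.34. Stra8, an RA target best known for entry into meiosis (chr6:34920960-34939342), was at 75.3, 91.7, 130.1 and 115 CPM at 6 h and 291, 378 and 428 CPM at 24 h. The lowest 24 h library was above the highest 6 h library, and the change was 1.83 ± 0.18 (adjusted p = 5.81e-07). Stra6, the receptor that takes up retinol, was at 37.2, 34.6, 49.9 and 42.2 CPM at 6 h and 142, 106 and 122 CPM at 24 h. Stra6 changed by 1.58 ± 0.24 (adjusted p = 9.34e-05). Dhrs3, which turns retinal back into retinol, was at 36.3, 32.6, 30.3 and 37.2 CPM at 6 h and 76.7, 72.3 and 72.6 CPM at 24 h. Dhrs3 changed by 1.12 ± 0.17 (adjusted p = 5.13e-05). Rarb, the receptor induced by its own ligand (chr14:16430840-16575476), was at 9.51, 12.1, 11.9 and 12.8 CPM at 6 h and 21.1, 25.5 and 32.8 CPM at 24 h. Rarb changed by 1.20 ± 0.26 (adjusted p = 0.00156). These rises held without any single library. Crabp2, which carries RA to the receptors, was at 5.56, 8.59, 10.6 and 10.3 CPM at 6 h and 17.2, 31.5 and 50.8 CPM at 24 h. Crabp2 changed by 1.91 ± 0.47 (adjusted p = 0.00602), a call lost without 24 h replicate 4 (adjusted p = 0.0534). Its relative Crabp1 was at 4.19 ± 1.59 and 6.90 ± 0.766 CPM (adjusted p = 0.0864).

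The enzymes that destroy RA were not called in this step. Cyp26a1, the main RA hydroxylase of the early embryo (chr19:37697808-37701536), was at 287, 228, 374 and 511 CPM at 6 h and 496, 419.8 and 379 CPM at 24 h. The ranges overlap, with a change of 0.31 ± 0.26 (adjusted p = 0.425). Cyp26b1, its paralog, was at 13.1, 8.85, 25.1 and 27.5 CPM at 6 h and 11.6, 10.6 and 10.1 CPM at 24 h, so that 6 h replicates 3 and 4 were high and replicates 1 and 2 near the 24 h values. Its change of -0.75 ± 0.52 was not called (adjusted p = 0.319), but with the replicate number as a block it was -0.88 (adjusted p = 0.00483). With that block 2 genes of the pathway fell. Rarg, a receptor that ES cells carry before RA is given, fell from 264 ± 27.4 to 172 ± 13.2 CPM (-0.61 ± 0.21, adjusted p = 0.0352), a call lost without 6 h replicate 3 or 4 or 24 h replicate 1, 3 or 4 (adjusted p = 0.0561 to 0.114), and no pathway gene fell with the authors' size factors. In G4 the change was 1.29 ± 0.34 for Stra8 (adjusted p = 0.00871), 1.28 ± 0.23 for Rarb (adjusted p = 0.000249), 0.39 ± 0.42 for Cyp26a1 (adjusted p = 0.592) and 0.70 ± 0.49 for Cyp26b1 (adjusted p = 0.359).

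Nearly every gene tested in the Hoxa and Hoxb clusters rose. All 9 Hoxa genes that passed the filter on low counts rose, of 11 listed, with a median change of 2.15, and 9 of 10 Hoxb genes rose, with a median of 2.83. That filter used all 25 libraries, so a gene near 0 at 6 h could pass through later libraries alone, which favours rises among the Hoxa genes kept. Hoxa11 and Hoxa13 did not pass the filter, and Hoxb13 was not called. In G4, 4 of 9 Hoxa and 8 of 9 Hoxb genes tested rose. Hoxb8 (chr11:96281905-96285325) was at 0.494, 0.641, 1.01 and 0 CPM at 6 h and 7.52, 16.1 and 27.8 CPM at 24 h. It had the largest rise of the Hoxb cluster, 4.61 ± 0.52 (adjusted p = 3.49e-06), and among the 24 h libraries replicate 1 was lowest and replicate 4 highest. Hoxb1, of the 3′ end of the cluster (chr11:96365758-96368253), was at 3.71, 2.69, 8.17 and 7.20 CPM at 6 h and 19.2, 43.3 and 68.8 CPM at 24 h, in the same order among the 24 h libraries, with a change of 3.0 ± 0.45 (adjusted p = 0.000113). Hoxb2 rose from 2.94 ± 0.843 to 37.2 ± 20.3 CPM (3.66 ± 0.42, adjusted p = 6.13e-06), Hoxb4 from 7.93 ± 1.91 to 25.5 ± 4.79 CPM (1.68 ± 0.28, adjusted p = 0.000125), and Hoxb9 from 3.69 ± 1.55 to 16.5 ± 3.68 CPM (2.09 ± 0.30, adjusted p = 2.95e-05). Hoxb6 (3.25 ± 0.50, adjusted p = 7.54e-05) and Hoxb7 (3.39 ± 0.56, adjusted p = 0.000114) rose from means of 0.807 ± 0.411 and 0.260 ± 0.227 CPM at 6 h.

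In the Hoxa cluster, Hoxa5 (chr6:52201754-52204587) was at 3.71, 5.00, 4.20 and 4.07 CPM at 6 h and 31.8, 38.1 and 45.5 CPM at 24 h, with little spread at either time. Its change was 3.16 ± 0.22 (adjusted p = 4.41e-10). Hoxa7 was at 0.618, 0.898, 0.622 and 0 CPM at 6 h and 7.28, 9.07 and 6.63 CPM at 24 h. Hoxa7 changed by 3.60 ± 0.36 (adjusted p = 1.87e-07). Hoxa6 rose from 0.207 ± 0.284 to 1.52 ± 0.897 CPM (3.45 ± 0.77, adjusted p = 0.0021). Hoxa9 rose by 2.81 ± 0.65 (adjusted p = 0.00278), a call lost without 24 h replicate 1 (adjusted p = 0.0547). Mira, a noncoding RNA between Hoxa6 and Hoxa7 (chr6:52214492-52215288), was at 0.741, 0.641, 0.0778 and 0 CPM at 6 h and 6.06, 5.04 and 4.74 CPM at 24 h. Mira changed by 3.73 ± 0.54 (adjusted p = 2.41e-05). Neighbouring Hox transcripts can run into each other, and the counting is not stated to use strand, so reads of overlapping and antisense transcripts could not be separated.

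Of 12 Hoxc and Hoxd genes tested, of 18 listed, 4 rose and none fell, with all 12 changes above 0 and a median of 2.12. Because the filter on low counts used all times, genes near 0 at 6 h could enter through later libraries alone. Hoxc5 was at 0.114 CPM at 6 h and 37.3 CPM at 72 h (means). The common direction and the median of this list are thus partly set by the filter. The rises numbered 2 without 6 h replicate 3 or 4 or 24 h replicate 4, and 0 in the fit of the 7 libraries alone. Hoxc4 was at 0.618, 0.513, 0.389 and 0 CPM at 6 h and 1.70, 4.03 and 3.16 CPM at 24 h. Hoxc4 changed by 2.71 ± 0.60 (adjusted p = 0.002). Hoxc5 was at 0.124, 0.256, 0.0778 and 0 and 0.728, 2.02 and 5.37 CPM (4.16 ± 1.05, adjusted p = 0.00661), a call lost without 24 h replicate 4 (adjusted p = 0.076). Hoxc6 had 1 read in all at 6 h and 6 at 24 h, a ratio of 17.03 at equal depth with a 95% exact interval from 2.066 to 783.1 that covers counting error alone, and its call was lost without 6 h replicate 1, 3 or 4 or 24 h replicate 1 or 4 (adjusted p = 0.0693 to 0.186). Hoxc13 was called at 1.10 ± 0.41 (adjusted p = 0.0478) but not without 6 h replicate 3 or 4 or 24 h replicate 1, 3 or 4 (adjusted p = 0.0517 to 0.293). In G4, 8 of 11 Hoxc and Hoxd genes tested rose, with a median of 2.33.

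Genes for proteins that bind DNA together with Hox proteins rose as well, and 6 of 11 genes in the list of cofactors and caudal genes were called higher and none lower (median 1.42). Meis1, a cofactor that enters complexes with Hox and Pbx proteins (chr11:18880428-19018969), was at 3.46, 4.74, 5.06 and 4.69 CPM at 6 h and 13.8, 20.9 and 29.1 CPM at 24 h. Meis1 changed by 2.22 ± 0.34 (adjusted p = 9.94e-05). Meis2 rose from 15.8 ± 5.26 to 57.2 ± 27.8 CPM (1.82 ± 0.34, adjusted p = 0.000828). In these 2 genes replicate 1 was the lowest and replicate 4 the highest of the 24 h libraries, and each 24 h value was above every 6 h value. Cdx1, a caudal gene that acts upstream of Hox genes, was at 48.2, 32.8, 16.2 and 12.8 CPM at 6 h and 151, 46.9 and 65.1 CPM at 24 h, which overlap. Its call (1.65 ± 0.59, adjusted p = 0.049) was lost without 6 h replicate 2, 3 or 4 or 24 h replicate 1 or 4 (adjusted p = 0.068 to 0.297) and the change was 1.00 (adjusted p = 0.297) without 24 h replicate 1.

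Among Nodal and activin genes, which pattern the epiblast, 3 rose and 2 fell of 18 tested, near the 11.7% and 12% of all genes. The median of -0.01 turned to 0.10 with the authors' size factors. Lefty1, a secreted inhibitor of Nodal (chr1:180935039-180938401), was at 210.3, 238, 144 and 254 CPM at 6 h and 716, 1363 and 903 CPM at 24 h. It rose by 2.24 ± 0.47 (adjusted p = 0.00237), with no overlap between the times. Nodal itself was at 314 ± 36.3 and 255 ± 53.4 CPM (-0.30 ± 0.29, adjusted p = 0.5). Inhbb, a subunit of activin B, was at 195, 194, 159.7 and 161 CPM at 6 h and 112, 44.1 and 33.5 CPM at 24 h. Inhbb changed by -1.48 ± 0.33 (adjusted p = 0.00303), and was not called in the fit of the 7 libraries alone (adjusted p = 0.0587). Of the signal transducers, Smad3 rose by 0.80 ± 0.21 (adjusted p = 0.00628) and Smad2 fell, at -0.25 ± 0.09 (adjusted p = 0.0419), a call lost without 6 h replicate 1, 2, 3 or 4 or 24 h replicate 1 or 3 (adjusted p = 0.0533 to 0.203). With the replicate number as a block, 5 genes of the list rose and 3 fell.

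Among BMP genes 6 rose and 1 fell of 23 tested (median 0.30), against 11.7% and 12% of all genes. The rises numbered 3 without 24 h replicate 3 and the falls 2 without 24 h replicate 1. Bmp4, the ligand that with LIF sustains ES cells, was at 112, 83.2, 90.4 and 82.6 CPM at 6 h and 61.9, 22.2 and 17.4 CPM at 24 h. Its change was -1.43 ± 0.31 (adjusted p = 0.00237), -2.20 (adjusted p = 3.71e-06) without 24 h replicate 1, and it was not called in the fit of the 7 libraries alone (adjusted p = 0.0748). Msx1, a homeobox target of BMP (chr5:37820491-37824585), was at 2.72, 2.95, 1.09 and 1.25 CPM at 6 h and 16.5, 13.1 and 19.9 CPM at 24 h. Msx1 changed by 3.01 ± 0.38 (adjusted p = 1.1e-05). Msx2 rose by 1.05 ± 0.26 (adjusted p = 0.00421), a call lost without 24 h replicate 4 (adjusted p = 0.0601), and Bmp7 by 0.99 ± 0.28 (adjusted p = 0.0127), a call lost without 24 h replicate 1 (adjusted p = 0.0553). Id2, an inhibitor of differentiation factors, was at 23.2, 24.1, 28.3 and 30.0 CPM at 6 h and 26.9, 59.5 and 86.2 CPM at 24 h, where replicate 1 lay within the 6 h range. Its call (1.12 ± 0.38, adjusted p = 0.0408) was lost without 6 h replicate 1, 2, 3 or 4 or 24 h replicate 3 or 4 (adjusted p = 0.0567 to 0.256), and the change was 0.72 (adjusted p = 0.256) without 24 h replicate 4.

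In the FGF pathway, 3 of 25 genes rose and 2 fell, near the 11.7% and 12% of all genes, with a median of -0.21. With the authors' size factors 5 rose, and the falls numbered 1 without 24 h replicate 4. Fgf4, the ligand by which ES cells drive their own differentiation and a target of Oct4 and Sox2 (chr7:144861386-144865243), was at 308, 293, 299.6 and 333 CPM at 6 h and 146, 134 and 91.0 CPM at 24 h. It fell in every 24 h library, by -1.31 ± 0.25 on the log2 scale (adjusted p = 0.00073). Fgfr4 was at 26.8, 11.8, 20.8 and 18.1 CPM at 6 h and 13.6, 10.3 and 5.37 CPM at 24 h, which overlap (-0.97 ± 0.26, adjusted p = 0.00711), and the call was lost without 24 h replicate 4 (adjusted p = 0.0612). Il17rd, also called Sef and a brake on FGF signalling, was at 209.9, 189.9, 154 and 133 CPM at 6 h and 390.0, 429.9 and 423 CPM at 24 h. Il17rd changed by 1.27 ± 0.19 (adjusted p = 6.57e-05). Dusp6, the phosphatase of ERK, rose by 0.60 ± 0.17 (adjusted p = 0.01), the change being 0.35 (adjusted p = 0.163) without 24 h replicate 4, and the transcription factor Etv1 rose by 0.80 ± 0.18 (adjusted p = 0.00239).

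Of 16 Wnt ligand genes, 2 fell and 1 rose, against 12% and 11.7% of all genes, the falls numbering 1 without 6 h replicate 4 or 24 h replicate 3 or 4. Wnt7b fell from 44.6 ± 12.2 to 15.3 ± 4.07 CPM (-1.52 ± 0.40, adjusted p = 0.00907). Wnt3a, a ligand of the primitive streak, was at 13.8, 4.49, 13.7 and 20.3 CPM at 6 h and 4.37, 3.78 and 2.21 CPM at 24 h. Wnt3a changed by -1.84 ± 0.57 (adjusted p = 0.0231), a call lost without 6 h replicate 4 or 24 h replicate 3 or 4 (adjusted p = 0.0533 to 0.0929). Wnt2 rose by 1.76 ± 0.51 (adjusted p = 0.0122), a call lost without 24 h replicate 1 (adjusted p = 0.0913), and with the replicate number as a block 2 ligands rose. Of 16 targets and feedback genes of Wnt signalling 5 rose and 2 fell, the rises numbering 2 without 24 h replicate 4 and 3 without 6 h replicate 2, 3 or 4 or 24 h replicate 1. Nkd1 and Nkd2, intracellular inhibitors, rose by 1.49 ± 0.33 and 1.79 ± 0.29 (adjusted p = 0.00202 and 9.03e-05), and Dkk1, a secreted inhibitor, by 1.29 ± 0.48 (adjusted p = 0.0493), a call lost without 6 h replicate 2, 3 or 4 or 24 h replicate 1, 3 or 4 (adjusted p = 0.0576 to 0.188). The change of Dkk1 was 0.85 (adjusted p = 0.188) without 6 h replicate 3. Notum, an enzyme that inactivates Wnt proteins, fell from 54.9 ± 8.78 to 23.6 ± 10.3 CPM (-1.20 ± 0.22, adjusted p = 0.000376), and the membrane inhibitor Apcdd1 from 19.3 ± 4.47 to 11.4 ± 1.26 CPM (-0.71 ± 0.19, adjusted p = 0.00619).

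Some markers of the lineages that RA-treated ES cells can enter rose. Of 21 extra-embryonic endoderm genes, 5 rose and 1 fell, against 11.7% and 12% of all genes. Their median was 0.32, or 0.14 with a gene that had no reads in one group at its bound. The rises numbered 3 without 24 h replicate 4, and the summed CPM of the 21 genes was 3824, 3775, 2789.8 and 2889 at 6 h and 3816, 3066 and 2324 at 24 h. Foxa2, a forkhead factor of endoderm and of the midline (chr2:148042877-148045948), was at 0.124, 0.256, 0.233 and 0.313 CPM at 6 h and 1.46, 3.78 and 11.4 CPM at 24 h. Foxa2 changed by 4.48 ± 0.66 (adjusted p = 3.76e-05), with replicate 1 the lowest and replicate 4 the highest of the 24 h libraries. Gata4, an endoderm factor, rose from 1.80 ± 0.573 to 6.21 ± 2.06 CPM (1.69 ± 0.38, adjusted p = 0.00194), and Pdgfra, a receptor of primitive endoderm and mesoderm, from 4.32 ± 1.72 to 14.3 ± 5.68 CPM (1.70 ± 0.31, adjusted p = 0.000346). Gata6, the other GATA factor of primitive endoderm, was at 4.99 ± 0.682 and 7.31 ± 3.24 CPM (0.55 ± 0.27, adjusted p = 0.151), and Sox17 at 0.276 ± 0.253 and 0.534 ± 0.492 CPM (adjusted p = 0.634). Sparc, a matrix protein abundant in parietal endoderm, was at 837, 684, 544 and 638 CPM at 6 h and 592, 356 and 271 CPM at 24 h. Sparc changed by -0.73 ± 0.18 (adjusted p = 0.0038), a fall that the fit of the 7 libraries alone did not call (adjusted p = 0.0807).

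Of 21 neural progenitor genes 4 rose and none fell, against 11.7% and 12% of all genes. Their median was 0.64, or 0.46 with the genes without reads in a group at their bound. Among the 4 rises is Gbx2, counted above among the naive genes. The summed CPM of the 21 genes was 295, 319, 210 and 180 at 6 h and 275, 226 and 260 at 24 h, which overlap. Dbx1, a homeobox gene of spinal cord progenitors, had no reads in the 7 libraries. Sox1, the first marker of the neural plate (chr8:12395519-12399555), was at 2.35, 2.18, 2.64 and 2.19 CPM at 6 h and 6.55, 10.3 and 21.2 CPM at 24 h. Sox1 changed by 2.37 ± 0.51 (adjusted p = 0.00215). Its 6 h libraries lay close together, and at 24 h replicate 1 was again the lowest and replicate 4 the highest. Irx3, a homeobox factor of the neural tube, rose from 1.30 ± 0.497 to 5.59 ± 1.70 CPM (2.01 ± 0.44, adjusted p = 0.00159), and En2 by 0.68 ± 0.22 (adjusted p = 0.0224), a call lost without 6 h replicate 4 or 24 h replicate 1 or 3 (adjusted p = 0.0585 to 0.0701). Pax6 was at 3.58, 5.13, 8.79 and 8.76 CPM at 6 h and 7.28, 13.4 and 12.6 CPM at 24 h, which overlap. Its change of 0.77 ± 0.46 (adjusted p = 0.233) was called with the replicate number as a block (0.76, adjusted p = 0.025), where 1 gene of the list fell.

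Of 12 primitive streak and mesoderm genes tested, 1 was called, Kdr, a receptor of blood and vessel progenitors, which fell by 1.03 on the log2 scale (adjusted p = 0.017), a call lost without 6 h replicate 1 or 24 h replicate 3 or 4 (adjusted p = 0.0627 to 0.088). T, or Brachyury, the marker of the streak, was at 28.4, 18.7, 2.88 and 1.56 CPM at 6 h and 11.4, 1.01 and 1.89 CPM at 24 h, so replicate 1 was the highest library at both times and replicates 3 and 4 were low. The change in T was -1.43 ± 1.18 (adjusted p = 0.413) and, with the replicate number as a block, -1.14 (adjusted p = 0.0136). With that block 2 genes of the list fell. Of 12 trophoblast genes, Esx1 rose by 1.17 ± 0.31 (adjusted p = 0.00746), a call lost without 24 h replicate 3 (adjusted p = 0.0644), while Tead4 fell by 1.17 (adjusted p = 0.00115) and Plet1 by 0.73 (adjusted p = 0.0481) on the log2 scale, the last lost without 6 h replicate 1, 2, 3 or 4 or 24 h replicate 3 or 4 (adjusted p = 0.0525 to 0.217), and with the block 2 genes rose. Cdh1, the epithelial cadherin of ES cells (chr8:106603368-106670246), was at 1814, 1514, 1837 and 1973 CPM at 6 h and 1221, 1148 and 802 CPM at 24 h. Cdh1 changed by -0.75 ± 0.21 (adjusted p = 0.0106), a call lost without 24 h replicate 4 (adjusted p = 0.0715). Cdh3 also fell (-0.75 ± 0.16, adjusted p = 0.00101), Cdh6 rose from 2.26 ± 0.327 to 14.3 ± 3.81 CPM (2.66 ± 0.37, adjusted p = 3.1e-05), and Cdh2, which replaces Cdh1 in neural and mesenchymal cells, was at 43.9 ± 19.9 and 59.8 ± 18.9 CPM (adjusted p = 0.508). The other 14 genes of the cadherin and epithelial-mesenchymal list, Snai1, Snai2, Zeb1, Zeb2 and Twist1 among them, were not called, and the median was -0.04, or 0.07 with the authors' size factors. The rises of the list numbered 2 without 6 h replicate 3 and 3 without 6 h replicate 2, and the falls 1 without 24 h replicate 4. With the replicate number as a block 2 genes of it rose and 3 fell.

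A rare state of ES cells that resembles the 2-cell embryo is marked by Zscan4 and related genes, and of 10 genes listed for it 5 rose and 2 fell. The 2 falls were Tdpoz4, on few reads, and Eif1a. Eif1a was far more abundant than the Zscan4 genes, so its fall cannot be assigned to such cells. Zscan4d (chr7:11161643-11166148) was at 3.34, 2.18, 1.79 and 3.75 CPM at 6 h and 13.6, 5.29 and 15.8 CPM at 24 h. Zscan4d changed by 2.16 ± 0.45 (adjusted p = 0.00182), with 24 h replicate 3 the lowest of its time. Zscan4c rose from 1.49 ± 0.241 to 6.37 ± 2.47 CPM (2.06 ± 0.46, adjusted p = 0.00231) and Zscan4a from 1.70 ± 0.678 to 9.10 ± 4.80 CPM (2.39 ± 0.59, adjusted p = 0.00625). Usp17la, a deubiquitinase gene of the same state, rose from 0.876 ± 0.302 to 4.95 ± 2.93 CPM (2.57 ± 0.51, adjusted p = 0.000866). These genes have near-identical copies, so how reads were divided among them is uncertain. Tdpoz4 had 29 reads at 6 h and 1 at 24 h, a ratio of 6 h over 24 h of 10.22 (95% exact interval 1.695 to 417.4, counting error alone), its call was lost without 6 h replicate 3 or 24 h replicate 3 or 4 (adjusted p = 0.0605 to 0.107), and Eif1a fell from 280.1 ± 12.3 to 195 ± 24.8 CPM (-0.52 ± 0.10, adjusted p = 0.000704). In G4 none of the 10 rose and 1 fell, Zscan4d being at 0.49 ± 0.35 (adjusted p = 0.371).

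Of 29 imprinted genes, expressed from the copy of a single parent, 8 rose and none was called lower, against 11.7% and 12% of all genes (median 0.43). The rises numbered 5 without 6 h replicate 3 or 24 h replicate 4, and 1 gene fell without 24 h replicate 1. Mest, a hydrolase gene expressed from the paternal copy (chr6:30738053-30748466), was at 257, 258, 216 and 275 CPM at 6 h and 543, 850.2 and 953 CPM at 24 h. Mest changed by 1.64 ± 0.17 (adjusted p = 3.87e-07). Grb10, an adaptor that restrains growth, was at 105, 148, 74.1 and 86.7 CPM at 6 h and 226, 276 and 279 CPM at 24 h. Grb10 changed by 1.33 ± 0.30 (adjusted p = 0.0032). Neither gene overlapped between the times. H19, a noncoding RNA of the maternal copy, rose by 1.47 ± 0.38 (adjusted p = 0.00759), a call lost without 24 h replicate 4 (adjusted p = 0.0889), and the zinc finger gene Plagl1 by 1.19 ± 0.41 (adjusted p = 0.0364), a call lost without 6 h replicate 1, 3 or 4 or 24 h replicate 1 or 4 (adjusted p = 0.0515 to 0.266). In G4, 11 of 28 imprinted genes rose and 1 fell.

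Regulators of the cell cycle moved in both directions, 5 higher and 4 lower of 18 cyclins, inhibitors and Myc genes. The shares of all genes were 11.7% and 12%. No replication gene rose. Ccne1, the cyclin of entry into S phase (chr7:38097984-38107490), was at 254, 343, 263 and 369 CPM at 6 h and 171, 169 and 178 CPM at 24 h. Ccne1 changed by -0.83 ± 0.12 (adjusted p = 3.65e-05), and Ccne2 fell by 0.61 on the log2 scale (adjusted p = 0.000842). Ccnd2, a D-type cyclin, was at 36.8, 60.3, 33.8 and 29.1 CPM at 6 h and 106, 105 and 131 CPM at 24 h. Ccnd2 changed by 1.49 ± 0.41 (adjusted p = 0.013), a call lost without 24 h replicate 4 (adjusted p = 0.0515). The CDK inhibitor Cdkn2c rose from 0.546 ± 0.392 to 2.39 ± 0.159 CPM (1.92 ± 0.51, adjusted p = 0.00685), and Cdkn1c by 0.95 ± 0.29 (adjusted p = 0.0227), a call lost without 6 h replicate 1, 3 or 4 or 24 h replicate 3 or 4 (adjusted p = 0.0534 to 0.155). Of the Myc genes, Mycn fell from 121 ± 39.4 to 54.3 ± 12.8 CPM (-1.16 ± 0.30, adjusted p = 0.00816), Myc by 0.75 on the log2 scale (adjusted p = 0.012), a call lost without 24 h replicate 3 (adjusted p = 0.1), and Mycl rose by 1.44 ± 0.30 (adjusted p = 0.00123). The rises of this list numbered 3 without 24 h replicate 3 or 4.

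Of 25 replication genes 6 fell, with a median of -0.22, and 3 fell with the authors' size factors. Mcm10 fell from 197 ± 24.6 to 119 ± 3.57 CPM (-0.73 ± 0.11, adjusted p = 6.04e-05) and the licensing factor Cdt1 from 182 ± 21.1 to 112 ± 12.1 CPM (-0.69 ± 0.13, adjusted p = 0.00048). Of 22 mitosis genes 5 fell, among them Cdk1 (-0.52 ± 0.10, adjusted p = 0.000801) and Ccnb1 (-0.44 ± 0.12, adjusted p = 0.00674), and the count was 2 without 6 h replicate 4 and 3 without 24 h replicate 3, and 1 with the authors' size factors. With the replicate number as a block 1 mitosis gene rose. Replication-dependent histone genes, whose messages are mostly not polyadenylated and come from near-identical copies, had 18 of 62 genes higher and none lower (median 0.48), or 9 without 24 h replicate 4 and 11 without 6 h replicate 3. The testis-type histone genes Hist1h2aa (8.07 ± 2.74 to 28.0 ± 4.04 CPM, 1.84 ± 0.33, adjusted p = 0.000379) and Hist1h2ba (6.05 ± 2.62 to 21.7 ± 8.33 CPM, 1.84 ± 0.40, adjusted p = 0.00243) were among the 4 histone genes with the largest rises.

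Among genes of translation, part of the ribosomal protein genes fell. Of 87 cytosolic ribosomal protein genes 33 fell and none rose, with a median of -0.19, but the falls numbered 12 without 24 h replicate 3 and 20 without 24 h replicate 4, and 21 with the authors' size factors. The summed CPM of the 87 genes was 12919, 13146, 12176 and 16897 at 6 h (replicates 1 to 4). At 24 h it was 12815, 13001 and 13315 (replicates 1, 3 and 4), within the 6 h range. Rps12 (chr10:23785183-23787209), with the largest fall, was at 112, 90.7, 119 and 106 CPM at 6 h and 61.4, 39.8 and 32.8 CPM at 24 h. Rps12 changed by -1.25 ± 0.21 (adjusted p = 0.000155). Rpl17 fell by 1.08 on the log2 scale (adjusted p = 0.00807), and Rpl3 by 1.06 (adjusted p = 0.0151), a call lost without 24 h replicate 3 or 4 (adjusted p = 0.0755 to 0.0838). Ribosomal protein genes have many processed copies in the genome and hold small nucleolar RNAs in their introns, so how reads were divided among them is uncertain. Gas5 and Snhg1, the noncoding hosts of small nucleolar RNAs, fell too, Gas5 from 624 ± 88.6 to 310.2 ± 109 CPM (-1.01 ± 0.26, adjusted p = 0.00744), a call lost without 24 h replicate 3 (adjusted p = 0.0501), and Snhg1 from 327 ± 15.9 to 173 ± 57.5 CPM (-0.91 ± 0.21, adjusted p = 0.00362). The other 8 long noncoding RNAs of that list, Malat1 and Neat1 among them, were not called. In G4, 2 of 87 ribosomal protein genes fell, with a median of -0.16.

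Metabolic and stress lists held some calls too. Of 19 cholesterol synthesis genes 6 rose, all by less than 2-fold, or 3 without 6 h replicate 3 or 24 h replicate 3, led by Fdps (27.6 ± 2.84 to 47.6 ± 8.46 CPM, 0.79 ± 0.14, adjusted p = 0.000226). Insig1, the sterol sensor partner (0.63 ± 0.15, adjusted p = 0.00266), and Dhcr7, the last enzyme of the path (0.54 ± 0.12, adjusted p = 0.00123), rose as well. Of 22 glycolysis genes 3 rose and 1 fell, against 11.7% and 12% of all genes. Their rises numbered 0 without 24 h replicate 3 or 4 and 6 without 6 h replicate 4 or 24 h replicate 1. The falls of glycolysis genes numbered 0 without 6 h replicate 4 or 24 h replicate 1 and 2 without 6 h replicate 1. Of 75 oxidative phosphorylation subunits 1 rose and 2 fell, against 11.7% and 12% of all genes. The rises of the subunits numbered 0 without 6 h replicate 3 or 24 h replicate 3, 2 without 6 h replicate 2 and 4 without 6 h replicate 4, and the falls 0 without 24 h replicate 3 and 1 without 6 h replicate 1, 2, 3 or 4 or 24 h replicate 4, and none fell with the authors' size factors. Of 17 integrated stress response genes, the targets of ATF4, 8 rose and none fell, or 4 without 24 h replicate 3. Vldlr, a lipoprotein receptor, rose from 4.58 ± 1.87 to 17.9 ± 8.51 CPM (1.94 ± 0.43, adjusted p = 0.00245) and Nupr1 from 1.38 ± 0.733 to 5.13 ± 2.34 CPM (1.98 ± 0.42, adjusted p = 0.00145), while Chac1 (1.36 ± 0.39, adjusted p = 0.0143) was 0.65 (adjusted p = 0.298) without 24 h replicate 3. Of 17 p53 targets 1 was called, Sesn1 (-0.40 ± 0.14, adjusted p = 0.0343), lost without 6 h replicate 1, 3 or 4 or 24 h replicate 1 or 3 (adjusted p = 0.0545 to 0.147), and with the replicate number as a block 2 rose. Among 16 immediate early genes, Nr4a1 (-0.68 ± 0.17, adjusted p = 0.00391) and Zfp36 (-0.63 ± 0.16, adjusted p = 0.0061) fell, and Jun was called at 0.99 ± 0.34 (adjusted p = 0.0391) but not with the replicate number as a block (0.99, adjusted p = 0.0658), nor without 6 h replicate 3 or 4 or 24 h replicate 3 or 4 (adjusted p = 0.0967 to 0.132).

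The clustered protocadherins, adhesion proteins by which neurons tell themselves apart, had 16 of 45 genes higher and none lower, and all 45 fitted changes were above 0 (median 0.51). Here too the filter, which kept 45 of 55 listed, could let in genes near 0 at 6 h through later libraries alone. The rises numbered 1 without 24 h replicate 3, 5 without 6 h replicate 3 and 6 without 24 h replicate 4, and 1 in the fit of the 7 libraries alone. Pcdha7 was at 1.98, 1.67, 0.933 and 0 CPM at 6 h and 2.67, 6.30 and 4.74 CPM at 24 h. Pcdha7 changed by 1.82 ± 0.46 (adjusted p = 0.00525), a call lost without 24 h replicate 3 (adjusted p = 0.066). Pcdhb2 had 3 reads at 6 h and 12 at 24 h, a ratio of 11.35 (95% exact interval 3.063 to 62.68, counting error alone). Genes of the alpha and gamma clusters share their last exons and overlap, so the members are not separate measurements. In G4, 40 of 45 rose, with a median of 1.00.

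**Figure D3:**
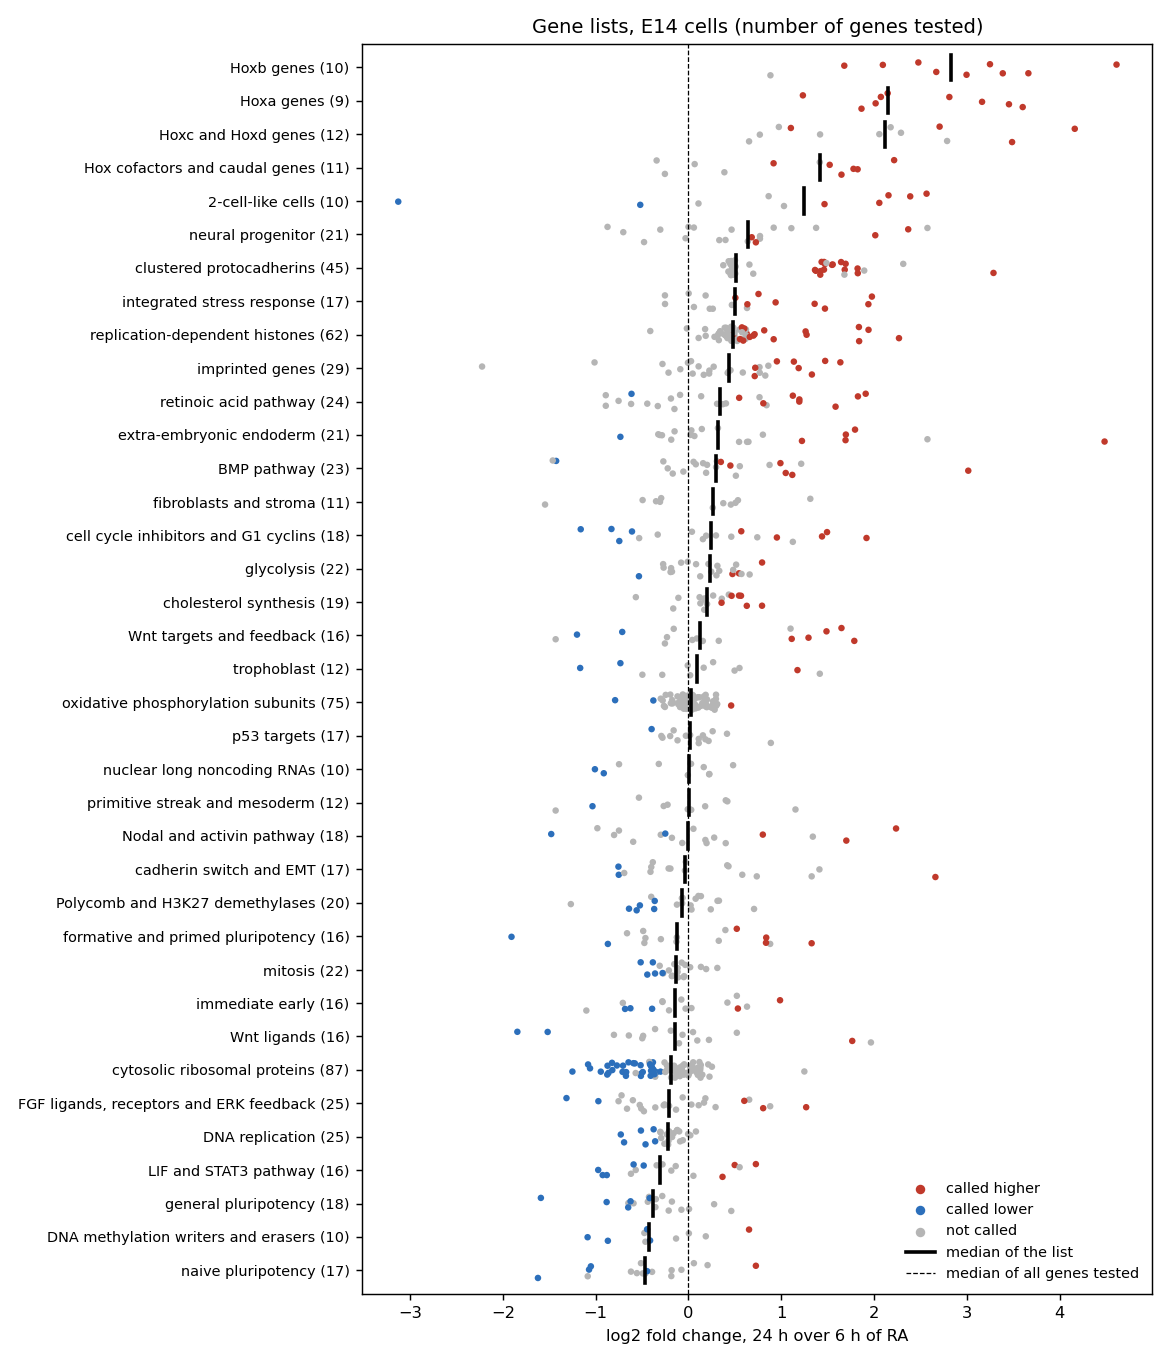
Fitted log2 fold change of 24 h over 6 h (x axis) for every tested member of 37 gene lists (rows), coloured by call, with the median of each list as a bar. The Hoxa and Hoxb lists lie wholly above 0, with medians of 2.15 and 2.83, against -0.01 for all genes tested. Members could pass the filter on low counts through libraries of any time.

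The largest falls were in genes that few of the lists hold. Edn2, which encodes the secreted peptide endothelin 2 (chr4:120161424-120167360), was at 3.95, 2.56, 7.70 and 8.45 CPM at 6 h and had no reads in any 24 h library. Its 178 reads at 6 h against 0 at 24 h make it at least 20.9-fold lower, with a floor of 3 reads over the 24 h group, and in G4 the signal was 37.6 and 32.2 at 6 h and 0 and 3.23 at 24 h. Enpp2, the secreted enzyme autotaxin that makes lysophosphatidic acid (chr15:54838679-54920146), was at 17.8, 16.7, 23.8 and 15.3 CPM at 6 h and 1.94, 2.77 and 2.21 CPM at 24 h. Enpp2 changed by -3.01 ± 0.34 (adjusted p = 1.28e-06). Zan, a membrane protein known from sperm (chr5:137378637-137477064), was at 38.1, 30.9, 54.8 and 32.9 CPM at 6 h and 6.31, 6.55 and 2.84 CPM at 24 h. Zan changed by -2.88 ± 0.31 (adjusted p = 1.2e-06). Kirrel2 (chr7:30447766-30457515), an adhesion protein that lies beside Nphs1, which encodes nephrin, was at 68.8, 58.2, 78.9 and 56.9 CPM at 6 h and 17.7, 11.8 and 5.37 CPM at 24 h. Kirrel2 changed by -2.47 ± 0.26 (adjusted p = 1.22e-06). Nphs1 (chr7:30460058-30488609) was at 148, 129, 213 and 169 CPM at 6 h and 63.1, 42.3 and 20.2 CPM at 24 h. Nphs1 changed by -1.96 ± 0.30 (adjusted p = 0.000148). In both neighbours replicate 1 was the highest and replicate 4 the lowest of the 24 h libraries. Notch4, a Notch receptor of endothelium (chr17:34564295-34588543), was at 148, 126, 160.4 and 139 CPM at 6 h and 58.2, 29.0 and 12.3 CPM at 24 h. Notch4 changed by -2.09 ± 0.36 (adjusted p = 0.000422). Psors1c2 (-2.30 ± 0.22), Grm2 (-2.28 ± 0.31), Ttc25 (-2.05 ± 0.38), Plxna4 (-2.03 ± 0.35), Slc52a3 (-1.98 ± 0.31) and Cdhr1 (-1.96 ± 0.31) complete the 12 largest falls, with adjusted p = 1.43e-07, 1.51e-05, 0.000409, 0.000152, 9.23e-05 and 8.5e-05.

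Besides Hox genes, Mira, Foxa2 and Msx1, the 12 largest rises held Fat3, Megf10 and Mir6240. Fat3, a giant cadherin of the nervous system, was at 3.34, 3.21, 2.18 and 1.25 CPM at 6 h and 8.73, 37.0 and 28.4 CPM at 24 h. Fat3 changed by 3.22 ± 0.51 (adjusted p = 0.000193). Megf10, a receptor by which glia engulf debris, was at 0.865, 1.03, 0.622 and 0.313 CPM at 6 h and 3.40, 4.54 and 7.90 CPM at 24 h. Megf10 changed by 2.75 ± 0.51 (adjusted p = 0.000422). Mir6240 was at 0.124, 0, 0 and 4.69 CPM at 6 h, where replicate 4 stood apart, and 4.85, 6.80 and 9.16 CPM at 24 h. Mir6240 changed by 3.51 ± 0.80 (adjusted p = 0.00303), and 7.04 (adjusted p = 3.35e-07) without 6 h replicate 4. It was not called in the fit of the 7 libraries alone (adjusted p = 0.121). The largest gains in CPM were in Scd2, a fatty acid desaturase (1070.3 ± 418 to 2398 ± 98.5 CPM, 1.16 ± 0.32, adjusted p = 0.0129), Lefty1 and Prtg, an adhesion receptor of the neural plate (339.6 ± 98.8 to 1036 ± 178 CPM, 1.61 ± 0.30, adjusted p = 0.000822), and in Lars2 and Eef1a1. Lars2, the mitochondrial leucyl-tRNA synthetase, was at 119, 165, 45.0 and 777 CPM at 6 h and 833, 766 and 1049 CPM at 24 h, so 6 h replicate 4 lay within the 24 h range. Its call (1.70 ± 0.55, adjusted p = 0.0317) was lost without 6 h replicate 1 or 2 or 24 h replicate 1, 3 or 4 (adjusted p = 0.0513 to 0.0933), and it was 3.01 (adjusted p = 6.27e-06) without 6 h replicate 4. Lars2 was also not called in the fit of the 7 libraries alone (adjusted p = 0.287), and DESeq2's test gave it no adjusted p. Mean Lars2 was 81.0, 96.2 and 85.9 CPM at 0, 2 and 4 h, and 993 and 870 CPM at 48 and 72 h. That of Mir6240 was 0.121, 0.276 and 0.263, then 5.45 and 7.37 CPM. Libraries at 0, 2 and 4 h held 6225371 to 21078996 reads, and those at 48 and 72 h 2351105 to 3266458. With 3362536 reads, 6 h replicate 4 was near the 24 h libraries in depth. The part of depth in both genes was not tested. Eef1a1, the elongation factor, rose by 0.40 ± 0.13 (adjusted p = 0.0248), a call lost without 6 h replicate 1 or 3 or 24 h replicate 3 or 4 (adjusted p = 0.0649 to 0.143). The largest losses in CPM, besides Tet1 and Cdh1, were in Tfrc, the transferrin receptor (1582 ± 88.5 to 936 ± 268 CPM, -0.76 ± 0.15, adjusted p = 0.00061), Atp2a2 (-0.49 ± 0.13, adjusted p = 0.00937), lost without 24 h replicate 4 (adjusted p = 0.0733), and nucleolin, Ncl (-0.33 ± 0.12, adjusted p = 0.0454), lost without 6 h replicate 2, 3 or 4 or 24 h replicate 1 or 3 (adjusted p = 0.0533 to 0.185).

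Seen beside the steps before and after it, the 24 h against 6 h change took several forms. The step from 0 h to 6 h shares the 6 h libraries and the step from 24 h to 48 h shares the 24 h libraries, so the values stand side by side and are not independent. The log2 fold change of Cyp26a1 was 4.43 ± 0.38 from 0 h to 6 h (adjusted p = 2.84e-07), 0.31 ± 0.26 in this step, and -0.44 ± 0.26 from 24 h to 48 h (adjusted p = 0.241). That of Hoxb1 was 3.97 ± 0.79 before (adjusted p = 0.00493), 3.0 ± 0.45 here and 1.01 ± 0.40 after (adjusted p = 0.0766). That of Hoxb9 was 0.91 ± 0.36 before (adjusted p = 0.19), 2.09 ± 0.30 here and 1.15 ± 0.27 after (adjusted p = 0.00388). Zan had been at 2.23 ± 0.392 CPM at 0 h (n = 2), rose by 4.13 ± 0.34 to 6 h (adjusted p = 2.32e-08) and then fell here. Enpp2 was at 48.4 ± 10.4 CPM at 0 h, with a first step of -1.37 ± 0.23 (adjusted p = 0.000528) and a last step of 0.38 ± 0.46 (adjusted p = 0.593). Lefty1 was not called in the first step (-0.07 ± 0.53, adjusted p = 0.985), rose here, and was at 410.1 ± 271 CPM at 48 h (step -1.28 ± 0.47, adjusted p = 0.0571). Pou5f1 was at -0.06 ± 0.38 in the first step (adjusted p = 0.981) and at -1.70 ± 0.34 from 24 h to 48 h (adjusted p = 0.0016), reaching 118 ± 53.8 CPM at 48 h and 65.6 ± 39.8 CPM at 72 h. Tet1 was at -0.19 ± 0.21 in the first step (adjusted p = 0.781) and at -2.01 ± 0.19 in the last (adjusted p = 6.2e-07). Mest was at -0.56 ± 0.19 in the first step (adjusted p = 0.0973) and at 1.37 ± 0.17 in the last (adjusted p = 7.32e-06).

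**Figure D4:**
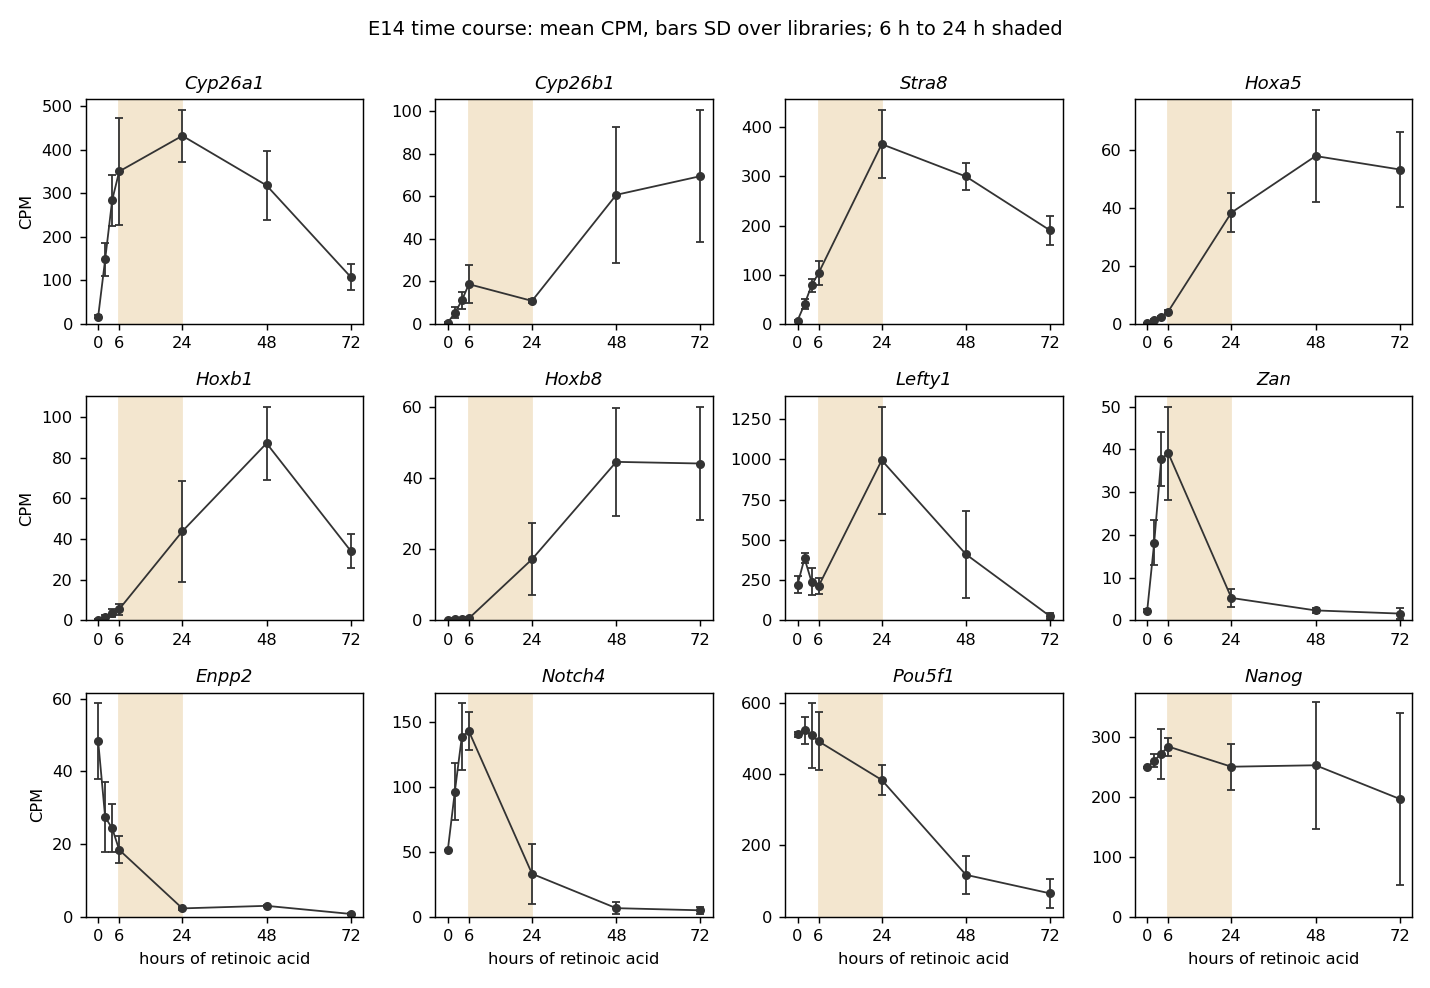
Mean ± SD of CPM (y axis, from 0) by hours of RA (x axis, 0 to 72 h) for 12 genes, with 2 libraries at 0 h, 3 at 24 h and 4 at the other times, and the step from 6 h to 24 h shaded. Enpp2, Zan and Notch4 fall within the shaded span, Hoxa5, Hoxb1 and Hoxb8 rise in it, and Cyp26a1 is at 349.9 ± 123 and 432 ± 59.4 CPM at its edges.

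Nuclear RNA of the clone G4 was measured over the same hours, and its signal was tested with limma in a table of its own, so no test joins it to E14. Of 15895 genes tested in G4, 1519 were higher at 24 h (9.56%) and 1152 lower (7.25%), 16.8% in either direction, with 897 (5.64%) and 315 (1.98%) at least 2-fold. Those counts fell to 753 higher and 415 lower without G4 6 h replicate 2, to 861 and 568 without 24 h replicate 1, and to 971 and 617 without 24 h replicate 2, and the lower ones to 656 without 6 h replicate 1. Of the 775 genes at least 2-fold higher in E14, 748 were tested in G4, where 439 were called higher and none lower, 728 had a fitted change in the same direction and the median change was 1.20, against 1.48 in E14. Of the 283 genes at least 2-fold lower in E14, 279 were tested in G4, where 141 were called lower and none higher, 266 had a fitted change in the same direction and the median change was -0.99, against -1.30. In the other direction, 462 of the 824 genes at least 2-fold higher in G4 and tested in E14 were called higher there (56.07%), and 171 of 277 lower genes were called lower (61.73%). Among the genes described here, Hoxb8 was at 12.2 and 9.99 signal units at 6 h and 77.9 and 101 at 24 h in G4 (2.90 ± 0.49, adjusted p = 0.000121), Sox1 at 16.6 and 14.4 and 151 and 114 (3.0 ± 0.36, adjusted p = 8.55e-07), and Enpp2 at 355 and 221 and 15.0 and 16.2 (-4.08 ± 0.29, adjusted p = 7.59e-11). Lefty1 was at 1752 and 1294 and 6969.5 and 6075 in G4 and did not pass (2.11 ± 0.99, adjusted p = 0.15). Foxa2 (1.44 ± 0.56, adjusted p = 0.077), Msx1 (1.19 ± 0.50, adjusted p = 0.105) and Plxna4 (-0.28 ± 0.25, adjusted p = 0.492) were called in E14 and not in G4, and Pou5f1, Tfcp2l1 and Cdh2 (0.95 ± 0.31, adjusted p = 0.0368) in G4 and not in E14. Whether any of these genes differs between E14 and G4 was not tested, and cell line, RNA fraction and counting differ between the sets.

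**Figure D5:**
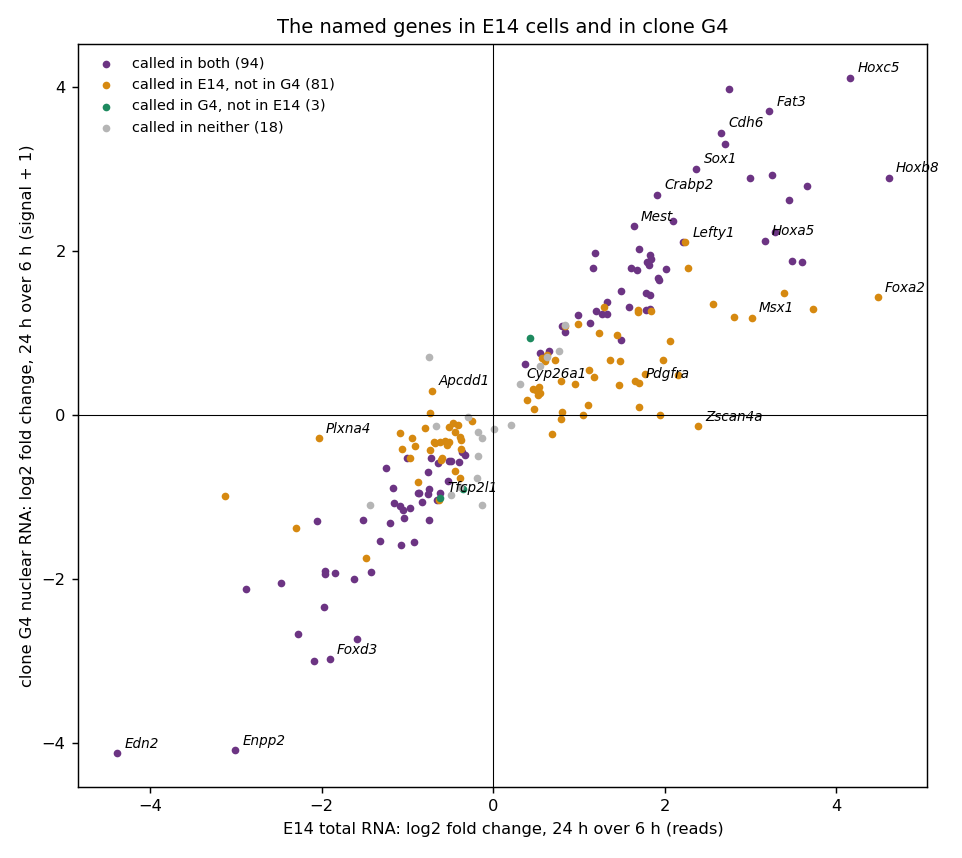
Log2 fold change of 24 h over 6 h in E14 total RNA (x axis) against G4 nuclear RNA (y axis) for 196 named genes with a G4 value, coloured by where they were called. Of these genes 94 were called in both sets, none of them in opposite directions, 81 in E14 and not in G4, 3 in G4 and not in E14, and 18 in neither, Edn2 being drawn at its bound of -4.39 in E14.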

How the data were processed

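The deposited E14 table gives, for 29076 transcripts, a normalised signal that is the authors' read count divided by 1 size factor per library, and all recovered reads lay within 0.1 read of a whole number, so whole counts were recovered from the deposited signal. STAR, Bowtie2, SAMtools and DESeq2 with mm10 and dm6 are named in the submitters' processing notes, and the counting program and its use of strand are not given in the sources used here. The authors' FPKM values, 25 columns of samples, were not used. The authors' deposited log2 fold changes and p-values served for their counts of calls alone. For each symbol the transcript with the highest mean share of reads was kept (19445 genes with reads, and 81 transcripts without a symbol left out). Counts of all 25 E14 libraries were fitted with edgeR 4.0.16 in R 4.3.3 (filterByExpr, TMM, robust quasi-likelihood test, Benjamini-Hochberg adjustment), and SE is the log2 fold change over the square root of F. The clone table's deposited signal, in the same unit, was tested over its 42 libraries with limma 3.58.1 on log2(signal + 1), for genes at 10 or more in at least 2 libraries, on which scale low genes' changes are understated. The count test planned for it was not used because in some columns the signal was not accepted as recovered whole reads. Replicate numbers 1, 3 and 4 occur at both times, and residuals of same-numbered libraries correlated at 0.35, 0.12 and 0.12, which met the rule for taking the numbers as pairs (each over 0.1). Differently numbered libraries correlated at -0.22 to 0.14, replicates 3 and 4 with each other at 0.12 and 0.13, so the correlations do not single out the pairs of replicates 3 and 4. A fit with the replicate number as a block is given where it changes the call of a named gene, and for some list counts. Other list counts moved as well, the clustered protocadherins most, from 16 higher to 21. Genes named were the 12 largest rises and falls (mean at least 5 CPM in the higher group, no overlap), the 5 largest gains and losses in CPM, fixed anchors of the lists, and up to 4 called genes per list and direction. Some named genes are not reported here, though list counts include them. Members and lists were chosen with earlier results of these data known. Promoters came from RefSeq (GRCm38.p6), matched by symbol and a start within 100 bases. Alternatives covered scaling, filters, tools (DESeq2 1.42.0), the samples fitted, the block and leaving out each library.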

Additional observations from a re-analysis of the deposited data

Results flagged for a closer look

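Among the 6 h levels of 193 named genes, 13 had a library whose gap to the others was above Dixon's 95% critical value for 4 samples, and chance flags about 1 in 20 such groups. Replicate 4, the library with the fewest reads at 6 h, was the highest for Crabp1 (6.57 CPM), Gdf3 (226 CPM), Ier2 (115 CPM), Lars2 (777 CPM) and Mir6240 (4.69 CPM), and the lowest for Gata4 (0.939 CPM) and Nkd1 (0.626 CPM). Replicate 2 was the highest for Dhcr7 (112 CPM), Grm2 (22.4 CPM) and Hoxc6 (0.128 CPM) and the lowest for Msx2 (3.08 CPM). Hoxc6 had 1 read in all at 6 h, so its flag, counted among the 13, was certain and says nothing about that library. Replicate 1 was the highest for Nr5a2 (78.0 CPM) and replicate 3 for Rpl3 (272 CPM).

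Apcdd1 fell in E14 (-0.71 ± 0.19, with every 24 h library below every 6 h library) and was at 0.30 in G4, where both 24 h libraries (87.9 and 73.3 signal units) were above both 6 h libraries (64.7 and 65.5). The difference between the sets was not tested.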

How the results depend on the processing

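The count of genes lower at 24 h in E14 was 929 with the authors' size factors, 884 with limma on log2 signal and 1133 when the 7 libraries were fitted alone, against 1809, and the genes higher numbered 2121, 2084 and 1433. Leaving out each E14 library in turn gave 1085 to 1682 genes higher, 1074 to 1649 lower, 572 to 803 at least 2-fold higher and 172 to 412 at least 2-fold lower. In G4 leaving out each library gave 753 to 1108 higher, 415 to 656 lower, 557 to 850 at least 2-fold higher and 170 to 269 at least 2-fold lower. With the replicate number as a block, 1983 E14 genes were higher and 2068 lower, and of 197 named genes 1 lost its call and 3 gained one, given beside them. With DESeq2's test the counts were 1904 and 1774, and with no filter 1691 and 1599. Of 3518 values of named genes under the alternatives, 3170 kept their direction and side of the threshold, 323 lost and 10 gained a call, and 15 turned direction, all of them of genes called in neither fit. Sox2 was at -0.028 with the replicate number as a block, whether on all 7 libraries or on replicates 1, 3 and 4 alone, and at -0.055 to 0.12 when each library was left out. Otx2 was at 0.016 with the authors' size factors and at -0.50 to 0.38 when each library was left out, Pou3f1 at -0.34 to 0.051 and Sox17 at -0.23 to 1.24. Fitted on replicates 3 and 4 alone, Cyp26a1 was at -0.12, Fgf5 at 0.060 and Sox17 at -0.32. Of the 176 named genes called, 109 stayed called whichever E14 library was left out and 67 did not. For G4 a count test and CPM were planned and not run, and DESeq2's size factors gave 1543 genes higher and 1088 lower. A pseudocount of 4 and a mean signal of at least 10 were added after seeing the data, the first giving 1622 higher and 1205 lower. With 3126787 to 4122332 reads in the 24 h libraries, genes under 1 CPM rest on few reads.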
